A study of Mus musculus with 12 samples.

Results

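The genes described here are 8 members of the WDFY and FGD families, grouped as FYVE-domain genes, out of 53801 genes in the count table. They are Wdfy1, Wdfy2, Wdfy3, Wdfy4, Fgd2, Fgd3, Fgd4 and Fgd6. They were chosen by symbol, all 8 were found, and the choice was made knowing that Wdfy1 and Fgd6 were lower in Atg5-knockout eosinophils of the bone marrow. RNA was sequenced from eosinophils of bone marrow and of blood, with 3 libraries for each of 4 groups and 18885052 to 30270166 counts per library. Knockout eosinophils came from Atg5 flox/flox eoCre Il5tg mice, and control eosinophils from eoCre Il5tg mice. eoCre is a knock-in of the Cre recombinase at the eosinophil peroxidase gene Epx, used in the heterozygous state, and Il5tg is a transgene that makes interleukin-5 from the T-cell promoter of Cd3d and fills the mice with eosinophils, so knockout and control mice carried both. Age was not given in the sources used here. Cells were enriched by depletion of neutrophils, macrophages, B cells and T cells with antibodies. Blood cells alone passed a density gradient and a lysis of erythrocytes beforehand, so tissue and isolation cannot be told apart. The study took both tissues from 3 mice of each genotype, and libraries of the 2 tissues may therefore share animals.

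A FYVE domain is a small zinc-binding fold that recognises phosphatidylinositol 3-phosphate, the lipid that marks early endosomes and the membranes on which autophagosomes form. WDFY1, WDFY2 and WDFY3 pair this domain with WD repeats and act as adaptors. WDFY1 and WDFY2 do so in signalling at endosomes, and WDFY3, which binds ATG5 itself, in selective autophagy. FGD proteins carry it beside the module that activates CDC42, a small GTPase that shapes the actin cytoskeleton. Atg5, the deleted gene, is needed to attach LC3 to autophagic membranes.

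The domain is known for a short run of basic residues and histidines at the lipid pocket. This run was searched as a basic residue, any residue, a pair of histidines, a cysteine and an arginine, in the coding frame of the canonical transcript of each gene (GENCODE M39), and it was present once in 6 of the 8 members. The stretches are shown because they show the domain signature where members hold it, with the 18 bases of the 6 codons in capitals and 6 bases on either side in lower case.
Wdfy1: ggcttgAGGCAGCATCACTGCAGGaagtgt
Wdfy2: ggactaAGACAGCACCACTGCCGGaagtgt
Wdfy3: acagagCGGAGGCACCATTGCAGGaactgt
Fgd2: actcgtCGGCGCCACCACTGCCGGgcttgc
Fgd4: accagaAGGCGGCATCACTGCCGGgcatgt
Fgd6: acctggAGAAGACACCACTGCAGGgcctgt
The run sat at codons 310 to 315 both of the 410 of Wdfy1 and of the 400 of Wdfy2. It lay near the end of the 3494 codons of Wdfy3, at 3440 to 3445, and at 1209 to 1214 of the 1399 codons of Fgd6. In Fgd2 it held codons 477 to 482 of 655, and in Fgd4 codons 578 to 583 of 766. Pairs of members were identical at 12 to 16 of the 18 bases, with 16 for Wdfy1 and Fgd4 and 13 for Wdfy1 and Fgd6. No stretch of this form was found in the Wdfy4 or Fgd3 transcript searched, which says only that these letters are not there. Among 25 further FYVE genes listed for comparison, 17 held it.

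Levels are given in CPM, the count of a gene scaled to library size and by the trimmed mean of M-values (TMM), with the mean ± SD of 3 libraries. Per kilobase of exon, the order in control bone marrow was Fgd3 with 17.9 CPM per kb, Wdfy4 with 10.3, Wdfy2 with 7.24, Fgd4 with 4.88, Wdfy1 with 3.98, Fgd2 with 2.75, Fgd6 with 1.98 and Wdfy3 with 0.388. Fgd3, Wdfy4 and Wdfy2 thus made up the upper end of this family in marrow eosinophils, and Wdfy3 was the weakest. Over the 12 libraries of both tissues, Wdfy3 had 21 to 252 counts in a library. The libraries were rich in eosinophil transcripts, since 10 marker genes such as Epx and Prg2 took 8.04% to 10.2% of counts in bone marrow and 1.80% to 4.05% in blood. Blood replicate 1 of both genotypes stood apart. B-cell markers took 0.232% of its counts in the knockout and 0.115% in control, against 0.0151% to 0.0393% in the other blood libraries. Red-cell markers took 14.6% of counts in control blood replicate 1, where eosinophil markers took 2.24%. In the other blood libraries red-cell markers took 0.422% to 1.42%.

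**Figure D1:**
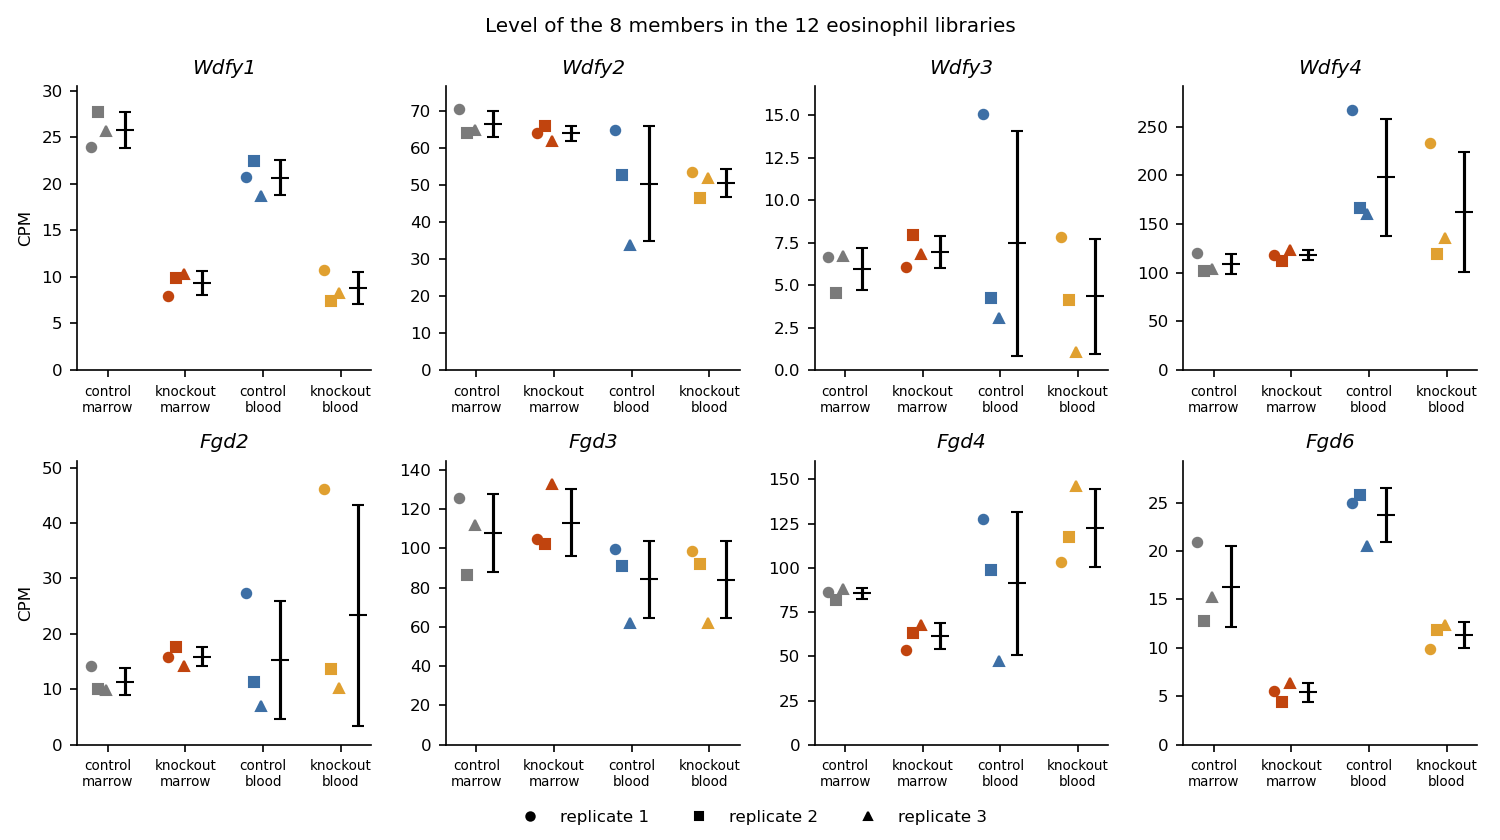
Level in CPM (vertical axis, from 0) of each member in the 12 libraries, by group, with replicates as circle, square and triangle and the mean ± SD of 3 libraries in black. Wdfy1 and Fgd6 lie lower in both knockout groups than in the control of the same tissue, and Fgd2, Wdfy3 and Wdfy4 are high in blood replicate 1.

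Wdfy1 lies on chromosome 1 at 79702262 to 79776143, minus strand (GRCm38, as are all positions below). It encodes an endosomal adaptor that links Toll-like receptors 3 and 4 to the signalling protein TRIF. Control bone marrow libraries had 23.9, 27.8 and 25.7 CPM. Knockout bone marrow libraries had 7.94, 9.90 and 10.3 CPM. Every knockout library was below every control library, and by the fit the control level was 2.81-fold higher (log2 fold change of knockout minus control -1.49, SE 0.14), a difference that the choice of this gene used and that is given without a test. In blood, which the choice did not use, control libraries had 20.8, 22.5 and 18.8 CPM and knockout libraries 10.7, 7.45 and 8.28. The groups did not overlap there either, and control was 2.31-fold higher (log2 fold change -1.21, SE 0.24, 95% interval -1.75 to -0.67).

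Fgd6 lies on chromosome 10 at 94036001 to 94145339, plus strand, and encodes a CDC42 activator known from osteoclasts and blood vessel cells. Control bone marrow libraries had 21.0, 12.8 and 15.2 CPM, and knockout bone marrow libraries 5.52, 4.41 and 6.37. All 3 knockout libraries were again below all controls, with control 3.07-fold higher (log2 fold change -1.62, SE 0.20), likewise a value behind the choice and given without a test. Blood libraries of control mice had 24.9, 25.8 and 20.5 CPM. Those of knockout mice had 9.85, 11.8 and 12.3 CPM. The lowest control was well above the highest knockout library, and control was 2.07-fold higher (log2 fold change -1.05, SE 0.22, 95% interval -1.55 to -0.55).

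The question of the blood comparison is whether the members differ with Atg5 in eosinophils outside the marrow. In edgeR's quasi-likelihood test with Benjamini-Hochberg adjustment over 13460 genes, no member passed an adjusted p of 0.05 in blood. Wdfy1 had an unadjusted p of 0.000744 and an adjusted p of 0.715 in edgeR, and Fgd6 had 0.00111 and 0.83. They ranked 14th and 18th of all genes by edgeR p and were the 2 members, of 8, whose unadjusted p lay under 0.05. Of all genes, 5 passed as higher and 0 as lower in edgeR, that is 0% called lower, while 347 had an unadjusted p under 0.05. DESeq2 called 13 genes higher and 9 lower, among them Wdfy1 with an adjusted p of 0.00687 and Fgd6 with 0.0173, whereas limma-voom called neither member. With 12 libraries in the fit, edgeR called 12 genes higher and 4 lower, among them Wdfy1 (adjusted p = 0.0202) but not Fgd6 (0.155). Over the 14 alternatives run, the adjusted p of Wdfy1 ranged from 0.00687 to 1 and that of Fgd6 from 0.0173 to 1, and all 14 gave the sign of a lower knockout level for both.

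By the plain separation of libraries, 2 of 8 members had all knockout blood libraries below all control blood libraries, and 4.06% of all genes tested did. In bone marrow, 3 of 8 members did, Wdfy1, Fgd6 and Fgd4, beside 5.67% of all genes separated this way and 0.203% called lower by edgeR, numbers from which nothing is read because the choice used that contrast. Platelet markers also separated the blood groups, with 11 of 11 markers counted in every library and 0.0298% to 0.0300% of counts in knockout against 0.0395% to 0.0593% in control. Neutrophil markers, also 11 of 11 in every library, overlapped as a share of counts, at 0.939% to 1.11% in knockout and 1.02% to 1.19% in control. On the TMM scale they did not, with summed levels of 10196 to 10767 CPM in knockout and 11715 to 13856 in control. Monocyte and macrophage markers separated on that scale too, at 3302 to 3651 CPM in knockout and 3655 to 3731 in control, with Mertk at 0 in 5 of the 6 blood libraries. Neutrophils and macrophages were among the cells that the isolation depleted. The part of the platelet, neutrophil, and monocyte and macrophage markers in the lower Wdfy1 and Fgd6 was not tested. In bone marrow the platelet shares overlapped, at 0.0417% to 0.0441% in knockout and 0.0377% to 0.0478% in control, as did the neutrophil levels, at 14518 to 17321 and 13531 to 17274 CPM. In bulk RNA, fewer cells of a type and less RNA per cell cannot be told apart. Without replicate 1 of both genotypes, which held the B-cell transcripts, the log2 fold change in blood was -1.37 for Wdfy1 and -0.92 for Fgd6, an alternative added after the marker shares were seen.

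**Figure D2:**
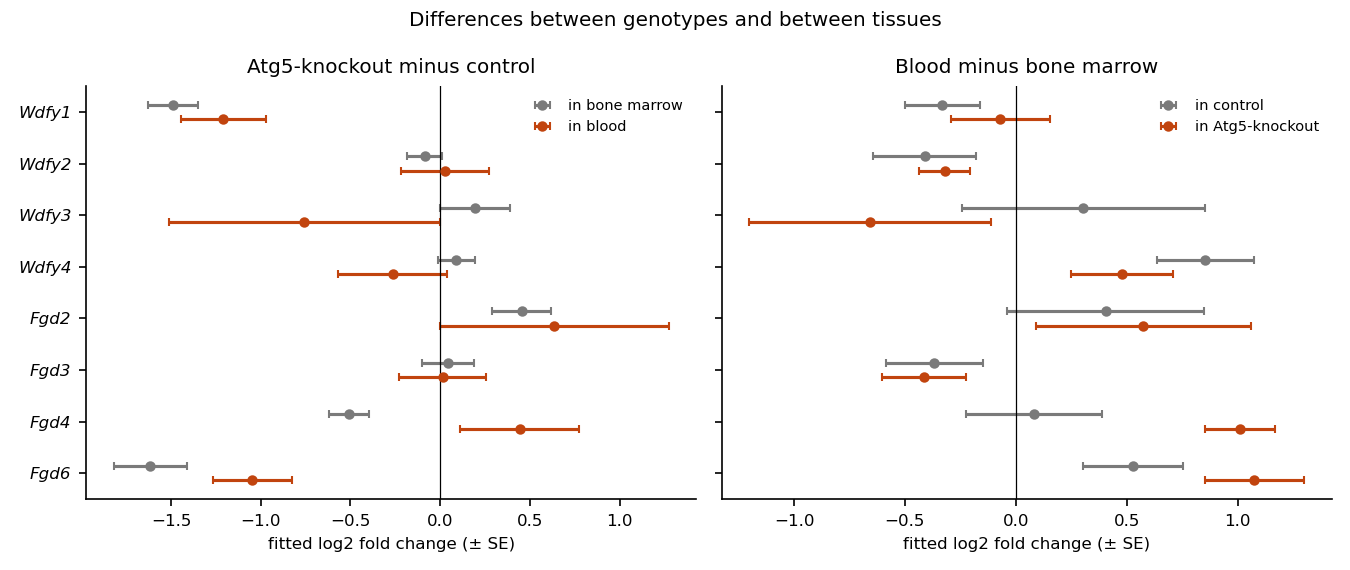
Fitted log2 fold change (horizontal axis) of each member with its SE, for knockout minus control in both tissues (left) and blood minus bone marrow in both genotypes (right). Wdfy1 and Fgd6 lie left of 0 in both tissues, at -1.49 and -1.62 in bone marrow and -1.21 and -1.05 in blood, and Fgd4 lies at 1.01 for blood minus bone marrow in the knockout.

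Part of the Wdfy1 counts could be shared. Its exons overlap those of Mrpl44, a mitochondrial ribosomal protein gene on the other strand, by 126 bases, and the counting did not use strand. Mrpl44 had log2 fold changes of -0.20 in bone marrow and -0.11 in blood between knockout and control, and the part of the shared bases in the Wdfy1 count was not tested. No exon of Fgd6 overlapped that of another gene. Atg5 itself, measured over all its exons and not only the deleted one, had 30.6, 31.3 and 33.9 CPM in knockout bone marrow and 41.4, 45.4 and 40.5 in control. It had 36.6, 52.4 and 52.4 CPM in knockout blood and 45.3, 58.7 and 40.1 in control. The Atg5 count thus told the genotypes apart in bone marrow and overlapped between them in blood. The paper also examined Atg5 by quantitative PCR and its protein by immunoblot in eosinophils of both tissues. It states that earlier work had shown Atg5-knockout eosinophils to lack autophagy.

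Wdfy1 and Fgd6 did not share one order of levels. For Wdfy1 the order was control bone marrow (25.8 ± 1.91 CPM), control blood (20.7 ± 1.86), knockout bone marrow (9.37 ± 1.25) and knockout blood (8.82 ± 1.72), and the last 2 groups overlapped. For Fgd6 it was control blood (23.7 ± 2.82 CPM), control bone marrow (16.3 ± 4.20), knockout blood (11.3 ± 1.30) and knockout bone marrow (5.43 ± 0.98), and the first 2 groups overlapped. Blood minus bone marrow was -0.33 in control and -0.07 in knockout for Wdfy1, and 0.53 and 1.08 for Fgd6, on the log2 scale and without a test, since the same marrow libraries chose the genes. Over the 12 libraries Pearson's r between them was 0.70 and Spearman's rho 0.66, a description over libraries that share genotype and tissue.

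**Figure D3:**
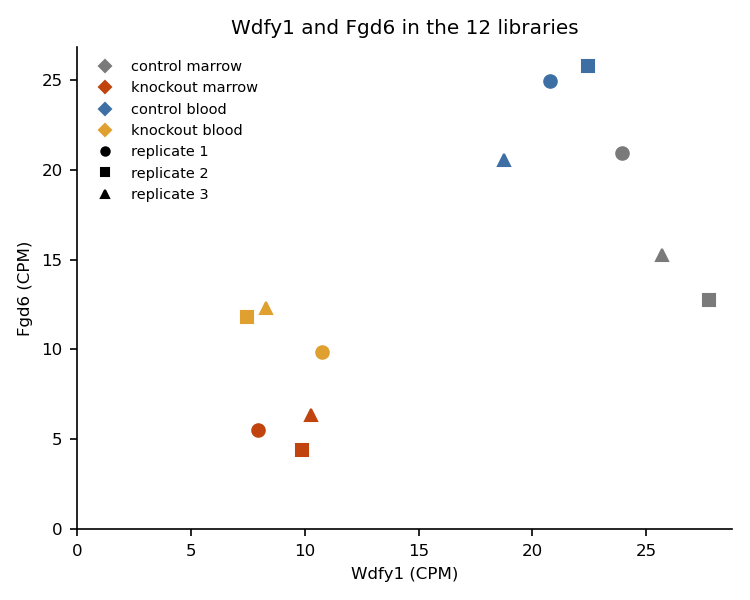
Wdfy1 (horizontal axis) against Fgd6 (vertical axis), both in CPM from 0, with 1 point per library, colour for group and shape for replicate. The 6 knockout libraries lie at 7.45 to 10.7 CPM of Wdfy1 and the 6 control libraries at 18.8 to 27.8, and for Fgd6 the tissues separate in knockout and overlap in control.

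The genes most like Wdfy1 over the 12 libraries, by Pearson's r of log2 CPM among 12616 genes, were the pseudogene Hmgb1-ps8 (0.90), the DNA repair glycosylase Tdg (0.87) and Dglucy (0.83), which encodes D-glutamate cyclase. Hmgb1-ps8 can share reads with its parent gene, and its level was low. It averaged 0.56 CPM in knockout and 1.43 in control bone marrow, and 0.49 and 1.71 in blood. Tdg averaged 8.92 CPM in knockout and 16.8 in control bone marrow, and 5.94 and 13.6 in blood. Those most like Fgd6 were the adhesion receptor gene Adgrg6, C920009B18Rik and the paired receptor gene Pira13, whose reads may be split with its paralogs, at 0.95 each. Adgrg6 averaged 19.2 CPM in knockout and 32.5 in control bone marrow, and 28.1 and 41.2 in blood. Of these 6 genes, 4 lie on chromosome 10, as do Fgd6 and Atg5. Of the 26487 genes with a count, a wider set than the 12616 compared, 4.95% do. Nothing is read from these numbers, because the likeness was taken over libraries that include the bone marrow contrast behind the choice. Atg5 lies at 44268358 to 44364291, 49.7 Mb from the start of Fgd6.

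Fgd4 came next after Wdfy1 and Fgd6 among members lower in knockout bone marrow, and so lies just outside what the choice named. It encodes frabin, an activator of CDC42 that also binds actin filaments and is mutated in an inherited neuropathy, and lies on chromosome 16 at 16416917 to 16600549. Control bone marrow libraries had 86.4, 81.9 and 88.3 CPM and knockout bone marrow libraries 53.6, 62.9 and 67.7. Knockout lay below control in every library, with a log2 fold change of -0.51 (SE 0.11), described without a test. In blood the libraries had 103, 118 and 147 CPM in knockout and 128, 98.6 and 47.5 in control. The groups overlapped, control blood alone spanning 2.69-fold, with a log2 fold change of 0.44 (SE 0.33, 95% interval -0.31 to 1.20) and an edgeR adjusted p of 1. It was 0.14 without control blood replicate 3, 0.76 without control blood replicate 1 and 0.87 without replicate 1 of both genotypes. Whether the genotype difference differs between tissues was not tested.

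Between tissues, Fgd4 had the lowest adjusted p of the 6 members tested, in knockout. Knockout eosinophils had 122 ± 22.1 CPM in blood and 61.4 ± 7.15 in bone marrow, every blood library was above every marrow library, and the log2 fold change was 1.01 (SE 0.16, edgeR adjusted p = 0.000951). All 14 alternatives called it, with adjusted p from 1.06e-07 to 0.00932. Control eosinophils had 91.2 ± 40.6 CPM in blood and 85.5 ± 3.27 in bone marrow, with a log2 fold change of 0.08 (SE 0.31, 95% interval -0.61 to 0.77, edgeR adjusted p = 0.859). This small value turned negative in 4 of 14 alternatives, to -0.22 with library size alone and to -0.23 without control blood replicate 1. The 2 tissue comparisons were made in separate libraries, and their difference was not tested.

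Wdfy4 encodes a large WD-repeat protein that dendritic cells need to present antigens of dead cells, and lies on chromosome 14 at 32959547 to 33185508. Control blood libraries had 267, 167 and 160 CPM, and control bone marrow libraries 120, 102 and 104. Blood was higher in every library (log2 fold change 0.85, SE 0.22, edgeR adjusted p = 0.0166). The call was lost with library size in place of TMM factors (adjusted p = 0.0767), without control bone marrow replicate 2 (0.0739) and without replicate 3 (0.0802), and edgeR's adjusted p ranged up to 0.0802 over the alternatives. Dendritic-cell markers, 12 genes, took 0.127% to 0.226% of counts in control blood and 0.0606% to 0.0635% in control bone marrow, with all 12 counted in each of these libraries, and their part in the Wdfy4 level was not tested. Without control blood replicate 1, the library with the most of these markers in control, the log2 fold change was 0.58 (edgeR adjusted p = 0.00879). Knockout blood libraries had 233, 119 and 136 CPM against 118, 112 and 123 in knockout bone marrow. These overlapped, with a log2 fold change of 0.48 (SE 0.23, edgeR adjusted p = 0.117) that ran from 0.12 to 0.66 when a library was left out, lowest without knockout blood replicate 1 and called by edgeR without knockout blood replicate 2 (adjusted p = 0.0479). Between genotypes the libraries overlapped in both tissues, with log2 fold changes of 0.09 (SE 0.10) in bone marrow and -0.27 (SE 0.30) in blood. In blood, knockout was below control in each of the 3 same-numbered pairs, a replicate block gave -0.29 (SE 0.14, edgeR adjusted p = 0.685), and the value was 0.01 without control blood replicate 1.

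Wdfy2, an endosomal adaptor for the kinase AKT, lies on chromosome 14 at 62837678 to 62961509. Knockout blood libraries had 53.6, 46.3 and 51.9 CPM and knockout bone marrow libraries 64.1, 65.9 and 61.8. Blood was lower in every library, by 0.32 on the log2 scale (SE 0.12, edgeR adjusted p = 0.0475), a call that 5 of 14 alternatives made and that a replicate block took to an adjusted p of 0.105. Leaving out knockout blood replicate 2 or 3, or any 1 of the knockout bone marrow libraries, also ended it, with adjusted p up to 0.147. Control blood libraries spread from 33.8 to 64.8 CPM and overlapped control bone marrow at 64.1 to 70.6, with a log2 fold change of -0.41 (SE 0.23, edgeR adjusted p = 0.197). It was -0.18 without control blood replicate 3 and -0.63 without replicate 1 (adjusted p = 0.0298), and 2 of 14 alternatives called it. Between genotypes Wdfy2 was close to level, at -0.09 (SE 0.10) in bone marrow and 0.03 (SE 0.24, 95% interval -0.53 to 0.58) in blood.

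Among the 6 members whose tissue difference was tested, edgeR thus called 1 higher and 0 lower in control blood, where 16.2% of all genes were called higher and 18% lower. In knockout blood it called 1 higher and 1 lower, where 23.5% were called higher and 24.1% lower. An unadjusted edgeR p under 0.05 was reached by the same 1 and 2 members, against 44.9% of all genes in control and 54.5% in knockout.

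Fgd3, a CDC42 activator on chromosome 13 at 49261554 to 49320311, had the highest level per length in control bone marrow. It had 125, 86.3 and 112 CPM in control bone marrow and 104, 102 and 133 in knockout. In blood it had 99.5, 91.1 and 62.1 CPM in control and 98.4, 91.8 and 61.7 in knockout, so that the same replicate numbers gave nearly the same values in both genotypes. The log2 fold change between genotypes was 0.04 (SE 0.14) in bone marrow and 0.01 (SE 0.24, 95% interval -0.54 to 0.57, edgeR adjusted p = 1) in blood. Blood was lower than bone marrow by 0.37 in control (edgeR adjusted p = 0.226) and by 0.41 in knockout (0.103) in log2 terms, neither past the threshold. Leaving out a library gave -0.51 to -0.18 in control, nearest to 0 without blood replicate 3, and -0.55 to -0.24 in knockout. Libraries overlapped in control and were separate in knockout, where 3 of 14 alternatives called the difference, one of them leaving out knockout blood replicate 1 (adjusted p = 0.0318). In control only library size alone called it (0.0422).

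Fgd2 encodes a CDC42 activator known from antigen-presenting cells, B cells among them, and lies on chromosome 17 at 29360914 to 29379660. Blood libraries had 46.2, 13.6 and 10.2 CPM in knockout and 27.3, 11.3 and 7.07 in control. Replicate 1 was far above the rest in both genotypes. Those 2 libraries were also the ones with the high B-cell share, and Pearson's r between Fgd2 and the summed B-cell markers was 0.998 over the 6 blood libraries (Spearman's rho 1), a description that rests largely on them. It was 0.986 with T-cell and 0.931 with dendritic-cell markers, which were high in the same 2 libraries. All 11 B-cell markers were counted in 5 of the 6 blood libraries, and Ebf1, Blk and Vpreb3 were at 0 in control replicate 3. The isolation depleted B and T cells, and the part of B, T and dendritic cells in the Fgd2 level was not tested. Knockout against control in blood was 0.64 (SE 0.64, edgeR adjusted p = 1) and became -0.34 without knockout replicate 1. Knockout was above control in each of the 3 same-numbered pairs, and the value was 0.39 with replicate 1 of both genotypes left out and 0.54 (SE 0.19, edgeR adjusted p = 0.593) with a replicate block. Bone marrow, where B-cell shares lay between 0.0374% and 0.0405%, had 15.8, 17.7 and 14.2 CPM in knockout and 14.2, 10.1 and 9.80 in control. Knockout was above control in every bone marrow library, the closest pair being nearly equal, with a log2 fold change of 0.45 (SE 0.16) that is given without a test. As a share of counts, dendritic-cell markers separated the same bone marrow libraries, at 0.0651% to 0.0679% in knockout and 0.0606% to 0.0635% in control. On the TMM scale they overlapped, with summed levels of 575 to 626 CPM in knockout and 544 to 581 in control. Their part in the Fgd2 difference was not tested. Blood minus bone marrow was 0.40 in control (edgeR adjusted p = 0.513) and 0.57 in knockout (0.356), and turned to -0.31 and -0.40 without replicate 1 of the blood.

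**Figure D4:**
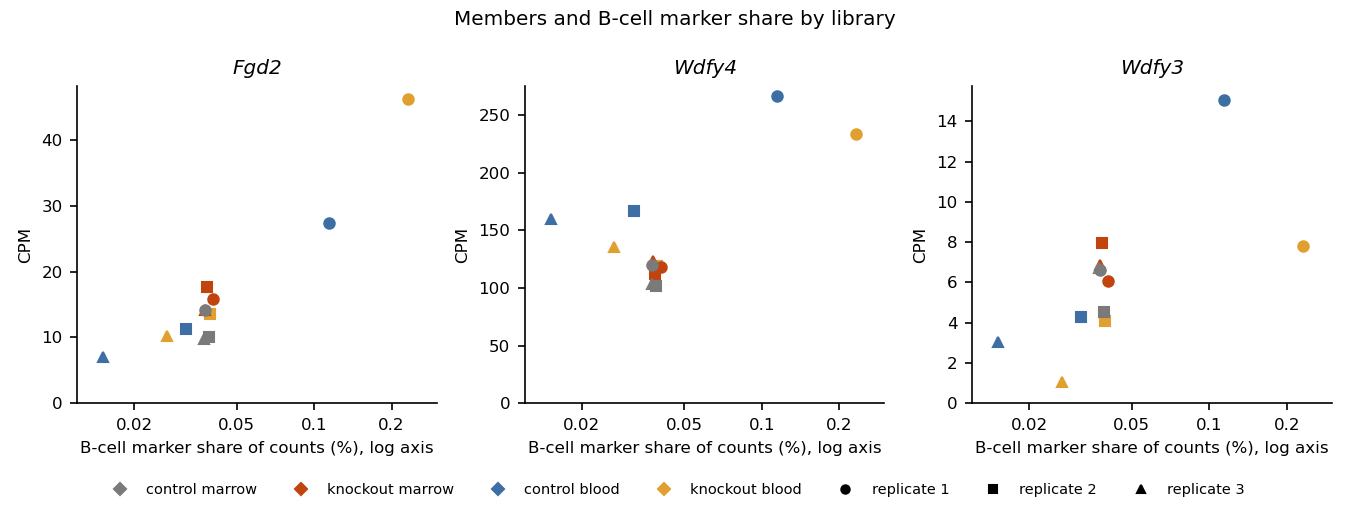
Level of Fgd2, Wdfy4 and Wdfy3 in CPM (vertical axis, from 0) against the share of counts taken by 11 B-cell markers (horizontal log axis, percent) in the 12 libraries. Blood replicate 1 of control (0.115%) and knockout (0.232%) lies apart to the right with the highest Fgd2, at 27.3 and 46.2 CPM, and the highest Wdfy4.

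Wdfy3 encodes ALFY, the scaffold that brings protein aggregates to the autophagy machinery, and lies on chromosome 5 at 101832956 to 102069921. Bone marrow libraries had 6.63, 4.52 and 6.72 CPM in control and 6.06, 7.94 and 6.85 in knockout. Blood libraries had 15.1, 4.26 and 3.04 CPM in control and 7.84, 4.11 and 1.07 in knockout. The blood values spread 4.95-fold in control and 7.30-fold in knockout, with replicate 1 highest in both, and the groups overlapped (log2 fold change -0.76, SE 0.76, 95% interval -2.48 to 0.96, edgeR adjusted p = 1). Knockout was below control in each of the 3 same-numbered pairs, and a replicate block gave -0.77 (SE 0.32, edgeR adjusted p = 0.652). The value was 0.26 without control blood replicate 1 and -0.48 without replicate 1 of both genotypes. In bone marrow it was 0.19 (SE 0.20), with overlapping libraries. Blood minus bone marrow was 0.30 in control (edgeR adjusted p = 0.699) and -0.66 in knockout (0.349). Without blood replicate 1 these became -0.71 in control (adjusted p = 0.0858) and -1.39 in knockout (0.0219, called by edgeR), and the control value had the opposite sign in 4 of 14 alternatives.

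The rest of the pathway was followed in 87 genes of 5 lists, covering other FYVE genes, the making and breakdown of phosphatidylinositol 3-phosphate, genes with the BEACH domain that WDFY3 and WDFY4 carry, partners of WDFY proteins, and CDC42 with its partners. Of 81 list genes tested in blood, edgeR called 0 between knockout and control, as did DESeq2, with 2 (2.47%) at an unadjusted p under 0.05 against 2.58% of all genes. Of 80 tested in bone marrow, edgeR called 0, with 7 (8.75%) at an unadjusted p under 0.05 against 9.67% of all genes. DESeq2, which called 60 genes higher and 136 lower there, called 3 of the list genes lower, named here after their values were seen. They were the FYVE gene Rufy4 (log2 fold change -0.97, DESeq2 adjusted p = 0.00125), the lipid phosphatase gene Inpp4b (-0.80, 0.00375) and Atg5 (-0.45, 0.0294), and edgeR gave Rufy4 an adjusted p of 0.0774, Inpp4b one of 0.0937, and Atg5 one of 0.157. The genes of lowest p in the lists in blood, 1 from each, were Rbsn, a tether of early endosomes, Becn1, a subunit of the lipid kinase complex, Wdr81, Atg16l1, the partner of ATG5, and the kinase gene Cdc42bpa. The 2 genes at an unadjusted edgeR p under 0.05 there were Wdr81 and Lrba (log2 fold change -0.49), a BEACH gene named here after its value was seen. Wdr81 was 33.8 ± 3.82 CPM in knockout and 46.2 ± 1.98 in control blood (log2 fold change -0.43, SE 0.17), and Atg16l1 was 23.6 ± 2.63 and 32.1 ± 6.16 (-0.42, SE 0.21), with libraries that did not overlap but an edgeR adjusted p of 1. Rbsn (-0.50), Becn1 (-0.33) and Cdc42bpa (-1.06) had overlapping libraries in blood.

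More list genes were called between the tissues than between the genotypes. In control, edgeR called 23 list genes higher and 6 lower in blood of 81 tested, 35.8% against 34.2% of all genes tested, and their median log2 fold change was 0.35. Leaving out a library gave 12 to 35 calls, the fewest without control bone marrow replicate 3 (12) or 2 (13). All genes tested gave 2212 higher and 2466 lower in the main fit. They gave 1163 and 1464 without control bone marrow replicate 3, and 1329 and 1665 without replicate 2. Without control blood replicate 1 all genes gave 2808 and 3118. In knockout edgeR called 28 higher and 13 lower of 81, 50.6% against 47.6% of all genes, with a median of 0.25. Without knockout bone marrow replicate 1 it called 14 higher and 6 lower, where all genes gave 2348 and 2554. Without knockout blood replicate 1 it called 27 and 16, where all genes gave 3684 and 4072. With library size alone the split was 10 higher and 12 lower in control, and 17 and 16 in knockout, where all genes split into 1308 and 3906, and 2258 and 4333. The median over all genes tested was 0.00 in control and -0.01 in knockout. The counts by list are read against 16.2% of all genes higher and 18% lower in control blood, and 23.5% and 24.1% in knockout blood. Of 12 partners of WDFY proteins, 7 were higher and 0 lower in control blood, and 8 and 0 in knockout. Of 17 genes of CDC42 and its partners, 4 were higher and 2 lower in control, and 8 and 5 in knockout. The list on the making and breakdown of the lipid had 24 genes tested, not all of which need act on it. Of these, 7 were higher and 0 lower in control, and 6 and 3 in knockout. Of 22 other FYVE genes the counts were 3 and 4 in control, and 4 and 5 in knockout, and of 6 BEACH genes 2 were higher and 0 lower in both. Marker shares differed between the tissues too. Eosinophil markers took 1.80% to 4.05% of counts in blood and 8.04% to 10.2% in bone marrow, and neutrophil markers were also lower in blood. Dendritic-cell markers took 0.117% to 0.326% in blood and 0.0606% to 0.0679% in bone marrow, and T-cell markers were also higher in blood. Their part in the list counts was not tested.

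Zfyve9, which presents SMAD proteins to the TGF-beta receptor, rose from 2.39 ± 0.22 CPM in control bone marrow to 12.4 ± 5.01 in control blood (log2 fold change 2.36, SE 0.33, edgeR adjusted p = 0.00107). In knockout it rose from 2.47 ± 0.70 to 11.7 ± 3.87 (2.26, SE 0.33, edgeR adjusted p = 0.00066). Uvrag, a subunit of the lipid kinase complex, was higher in blood in both genotypes, at 110 ± 6.34 CPM against 46.5 ± 4.44 in control, with log2 fold changes of 1.23 in control and 1.40 in knockout. Sqstm1, the autophagy receptor that binds WDFY3, rose to 497 ± 84.8 CPM from 231 ± 10.8 in control, and by 1.10 in control and 1.09 in knockout on the log2 scale (edgeR adjusted p = 0.0017 and 0.000464). Mtmr10, a myotubularin-family gene, rose to 25.0 ± 6.35 CPM from 5.43 ± 0.22 in knockout and to 19.0 ± 7.23 from 5.77 ± 0.18 in control. Vamp3, a SNARE of recycling endosomes, rose to 163 ± 25.2 CPM from 79.7 ± 4.28 in knockout and to 160 ± 11.2 from 89.5 ± 6.42 in control. Nsmaf, the BEACH gene of lowest p, was higher in blood by 0.81 in control and 0.57 in knockout in log2 terms. Cdc42ep3, an effector of CDC42, fell in blood in both genotypes, to 26.1 ± 5.68 from 68.6 ± 3.11 CPM in control and to 27.1 ± 4.51 from 62.9 ± 8.14 in knockout.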

How the data were processed

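The authors deposited raw read counts per gene for 12 libraries, made from stranded mRNA libraries, aligned with HISAT2 2.2.1 (methods) and counted with featureCounts 2.0.1 (header). The methods give single-end reads, while the header's command holds the option for paired reads. The header names the Ensembl 92 annotation of GRCm38, the methods a later one; positions here are those of the table, which also holds the exon length of each gene (the authors' deposited value). No strand option was set. Symbols for 49674 of 53801 identifiers came from GENCODE M39, whose transcripts gave the coding sequences.

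Each comparison was fitted on its 6 libraries with edgeR 4.0.16 (R 4.3.3): filterByExpr with a minimum count of 10, TMM factors and the quasi-likelihood test, Benjamini-Hochberg adjustment over all genes tested, called at 0.05. CPM use TMM factors over 12 libraries. DESeq2 1.42.0, limma-voom 3.58.1, other factors and filters, a 12-library fit, a replicate block and leaving out each library were alternatives. The code was tested on simulated data. The members and lists were chosen with earlier results of these data known. Named besides the members were the gene of lowest p of each pathway list in blood between genotypes and in both tissue comparisons, and the 3 genes most correlated with Wdfy1 and with Fgd6 on log2 CPM (prior count 2). Of the 8 marker lists summed (eosinophil, red cell, platelet, neutrophil, B cell, T cell, monocyte and macrophage, dendritic cell), T-cell markers took 0.0206% and 0.0369% of counts in blood replicate 1 of control and knockout and at most 0.00568% in the other blood libraries, and dendritic-cell markers 0.226% and 0.326% against at most 0.153%. Red-cell markers reached 14.6% in control blood replicate 1. Neutrophil shares were 0.939% to 1.19% in blood and 1.47% to 1.89% in bone marrow, and monocyte and macrophage shares were 0.308% to 0.362% over the 12 libraries. Libraries with the same replicate number deviated together between genotypes in blood (r = 0.54, 0.30 and 0.32), and replicate numbers were taken as pairing there from this pattern alone; in bone marrow (-0.21, -0.17 and 0.03) and between tissues they did not in every pair. p-values measure the spread between these libraries.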

Additional observations from a re-analysis of the deposited data

How the results depend on the processing

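In blood, 0 members were called between genotypes by edgeR, and 2 with DESeq2 and 1, Wdfy1, with 12 libraries in the fit. With a replicate block, which pairs the blood libraries, 0 were called, as with limma-voom, an adjusted p under 0.1, each library left out in turn (0 to 0) and replicate 1 of both genotypes left out. Between the tissues in control, 1 member was called, 2 with library size alone, 1 with a replicate block and 0 to 2 when a library was left out. In knockout 2 members were called. The count was 1 with RLE factors, a filter of 1 CPM in 3 libraries, 12 libraries in the fit or the replicate block. It was 3 with library size alone and with no filter on low counts. Leaving out a library gave 1 to 4, with 4 without knockout blood replicate 1. In the main fits all genes gave 2212 higher and 2466 lower in control, and 3256 and 3336 in knockout. In control these were 1163 and 1464 without bone marrow replicate 3, and 2808 and 3118 without blood replicate 1. In knockout they were 2228 and 2356 without bone marrow replicate 2, and 3684 and 4072 without blood replicate 1. Library size alone moved the median of all genes to -0.31 in control and -0.24 in knockout on the log2 scale for blood minus bone marrow, and the calls under it are relative to that shift. Pathway genes called in bone marrow between genotypes were 0, and 3 with DESeq2, the deleted gene Atg5 among them. They were 5 with no filter on low counts, where all genes gave 161 higher and 259 lower, against 20 and 28. Leaving out a library gave 0 to 1. Between the tissues, pathway genes called were 29 in control, and 12 to 35 when a library was left out. In knockout they were 41, and 20 to 43 when a library was left out. The causes were not tested. The lowest count of a member was 21, for Wdfy3 in knockout blood replicate 3.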
